A study of Mus musculus with 29 samples.

Results

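Of 62466 autosomal tiles of 1000 bp measured by reduced representation bisulfite sequencing (RRBS), 1183 kept much of their CpG methylation through long culture in 2i/L. They are called resisting tiles here. A tile entered the count with at least 3 CpGs of at least 5 reads in each of 9 libraries, those of S/L p20, 2i/L p10 and 2i/L p20, and its level is the summed methylated reads over all reads of those CpGs. A tile resisted when its mean was at least 50% over the 3 libraries of 2i/L p20 and at least 70% over the 3 libraries of S/L p20. The levels in S/L p20 and 2i/L p20 therefore chose the tiles and are given below as a description, without a test. The comparison set is the 19495 other high tiles, which also had at least 70% in S/L p20 but a mean under 50% in 2i/L p20. Every other library was outside the choice, apart from the requirement on reads in 2i/L p10.

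RRBS cuts DNA at CpG-rich sites and reads bisulfite-converted fragments, in which an unmethylated cytosine is read as thymine. The study measured 29 mouse libraries of 15 groups. The MEK DKO library came from a clonal male line of induced pluripotent stem cells that lack Mek1 and Mek2. That line was made from Mek1fl/fl;Mek2-/- embryonic fibroblasts (MEFs) with lentiviruses for M2rtTA and for doxycycline-inducible Oct4, Klf4, Sox2 and c-Myc, then transfected with a Cre plasmid that deletes Mek1, and kept in serum with LIF (S/L) on irradiated MEF feeders. The PD and CHIR libraries came from embryonic stem cell (ESC) line J-34 after 6 passages with a single compound each. In this field PD and CHIR are the usual short names of an inhibitor of Mek1/2 and an inhibitor of Gsk3, the pair that makes up 2i. The ESC lines J-34 and J-35, as well as J-37, all male, entered 2i/L or stayed in S/L at passage 4 and gave 1 library each at passage 10 (p10, 6 passages later) and passage 20 (p20, 16 passages later). Cultures returned from 2i/L to S/L were taken after 3 passages (p23, the 3 lines) and after 10 passages (p30, 2 libraries, of which the one titled J-35 is labelled J-34 in its cell type field). The media a2i/L and PKCi/L, whose composition the labels do not give, had 1 library each at p10 (J-34 and J-35) and 2 each at p20 (J-34 and J-35). Neonatal keratinocytes gave 2 male libraries labelled 2i/L, with no route from 2i/L culture given, and 1 female wild-type library.

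Mouse ESCs in serum carry high CpG methylation outside CpG islands. In 2i/L, which blocks Mek signalling and Gsk3, the de novo methylation enzymes and the maintenance factor Uhrf1 are known to decline, and methylation is diluted over cell divisions. Some sequences are known to lose less than the rest in this state, among them certain retrotransposons and imprinted regions. Coordinates here are of mouse build mm9, for which no annotation was used, so tiles are given by position and are assigned to no gene, exon, intron or repeat.

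Reads over CpGs numbered 8359802 to 22433006 per library, and a resisting tile carried a median of 26 to 56 reads per library. Each replicate is 1 library of a cell line, so p-values rest on the spread between lines. That spread was pooled per tile over all groups of a fit, and S/L p20 and 2i/L p20, which chose the tiles, entered it. The lines differed most in 2i/L p20. The SD of the library medians of resisting tiles was 12.3 points there, against 0.241 in S/L p10, 1.17 in 2i/L p10 and 1.30 at p23. Reads were amplified without molecular identifiers, and the intervals given cover counting error only. Read coverage of 1000 bp bins was more alike within than between sets of libraries. The p10, MEK DKO, PD and CHIR libraries correlated with each other at a median r of 0.968, and with the p23 libraries and the p20 libraries of S/L and 2i/L at 0.954 (log2 scale, across 336421 bins that share a genome). The p30, a2i/L p20, PKCi/L p20 and 2i/L keratinocyte libraries clustered apart from these. Comparisons of p23 with S/L p10, of p30 with p23 and of MEK DKO or PD with 2i/L p20 cross such sets, and there coverage set and group cannot be told apart.

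Resisting tiles were drawn mostly from the tiles with the highest levels in serum. Among tiles at 90 to 100% in S/L p20, 720 of 2819 (25.5%) resisted. Of those at 80 to 90%, 434 of 10710 (4.05%) did so, and of those at 70 to 80% only 29 of 7149 (0.406%). Most of the resisting tiles also sat near the threshold: 596 of them (50.4%) had a mean of 50 to 55% in 2i/L p20 (1.9% of all tiles had 50% or more, the value the choice used), 280 had 55 to 60%, 222 had 60 to 70%, 65 had 70 to 80% and 20 had more. A further 1111 high tiles lay just outside, at 45 to 50%. The tile chr4:47290682-47290700, just inside, had 62.5% in J-34, 42.4% in J-35 and 45.1% in J-37 in 2i/L p20. The tile chr10:121363416-121363566, just outside, had 57.1% in J-34, 46.7% in J-35 and 46.2% in J-37. Just inside the serum threshold, chr2:90235319-90235348 had 57% in J-34, 76.3% in J-35 and 77.5% in J-37 in S/L p20. Just outside it, chr13:44964978-44964992 had 61% in J-34, 75.4% in J-35 and 71% in J-37.

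Among resisting tiles with at least 20 reads in each of the 9 libraries, the highest minimum over the 3 lines in 2i/L p20 was at chr4:100235233-100235247 (4 CpGs). It had 86.1% in J-34, 85.7% in J-35 and 84.4% in J-37 in 2i/L p20, against 96.9%, 98.6% and 100% in the same lines in S/L p20. Next came chr14:119162718-119162735 (4 CpGs), with 83.8% in J-34, 87.5% in J-35 and 87.5% in J-37 in 2i/L p20. In S/L p20 it had 97.5% in J-34, 97.2% in J-35 and 100% in J-37. Both lay lower in 2i/L than in serum in each line. The next tiles, chr3:21056720-21056733 (5 CpGs) and chr1:44352427-44352447 (6 CpGs), had minima of 82.0% and 80%. CpGs of such short stretches share the same sequenced fragments.

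**Figure D1:**
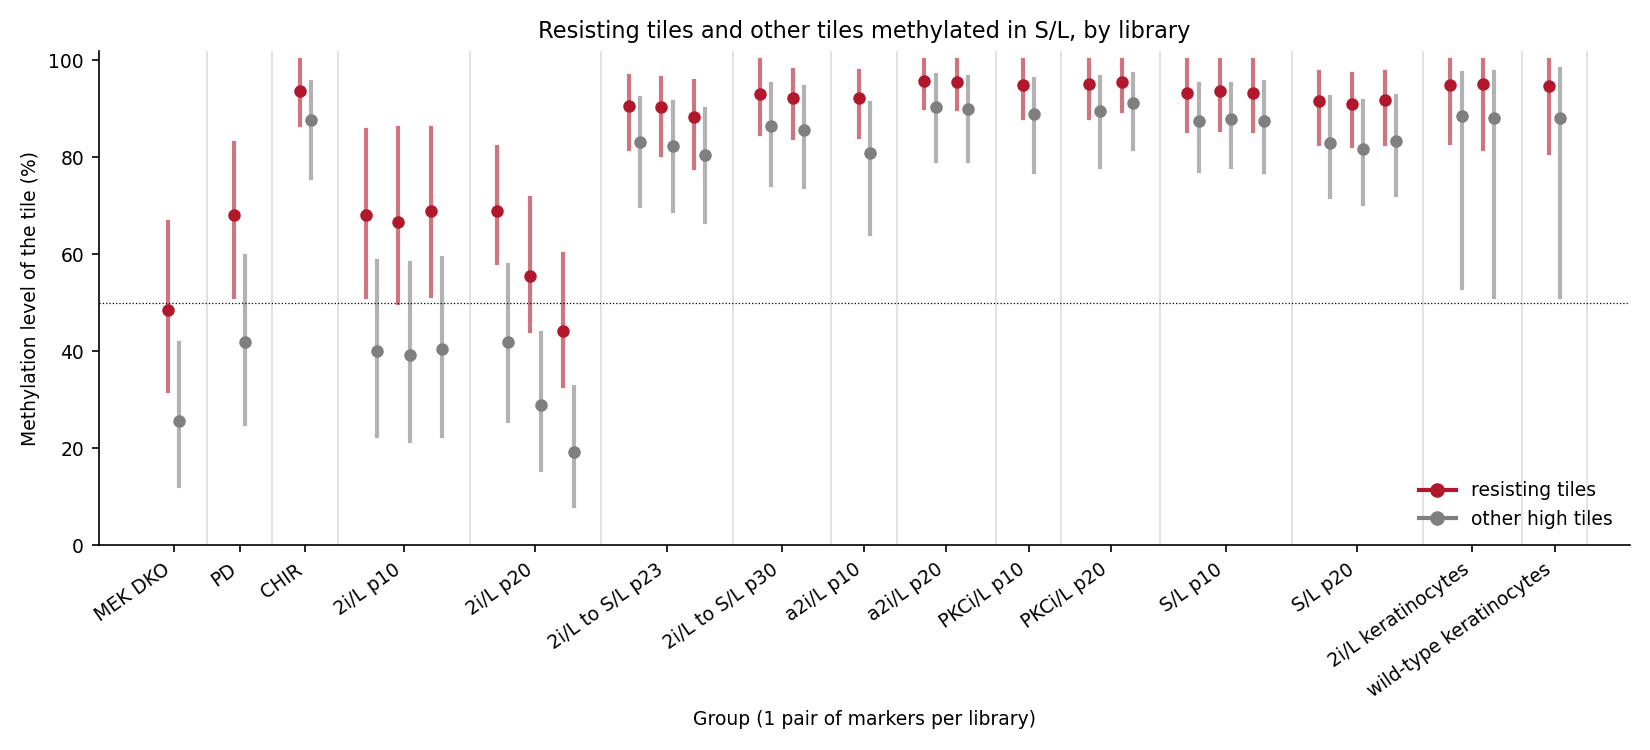
Methylation level (%) of resisting tiles (red) and other high tiles (grey) in each of the 29 libraries, by group; the point is the median over tiles, the bar runs from the 10th to the 90th percentile of tiles and the dotted line marks 50%. Resisting tiles lie above other high tiles in every library, the gap is widest in MEK DKO, PD and 2i/L, and the 3 lines of 2i/L p20 fan out from 68.9% (J-34) over 55.6% (J-35) to 44.3% (J-37).

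The 3 ESC lines did not keep these tiles equally. In 2i/L p20 the median level of the resisting tiles was 68.9% in J-34, 55.6% in J-35 and 44.3% in J-37. The mean of the library medians was 56.2% ± 12.3 in the resisting tiles, against 30.1% ± 11.3 in the other high tiles (SD, n = 3 lines each). Of the 1183 tiles, 294 (24.9%) had at least 50% in all 3 lines, 561 (47.4%) in J-34 and J-35 only, 78 in J-34 and J-37 only, and 232 (19.6%) in J-34 only. J-35 alone held 9 tiles, J-37 alone held 1 tile, and J-35 with J-37 held 8. J-34 lay above J-37 at 1133 tiles (95.8%), with a median difference of 24.0 points. The other high tiles showed nearly the same difference, 21.7 points. At 2i/L p10 the median difference of J-34 minus J-37 was -0.784 points in resisting tiles and -0.482 points in other high tiles, and at p23 it was 2.33 and 2.80 points.

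**Figure D2:**
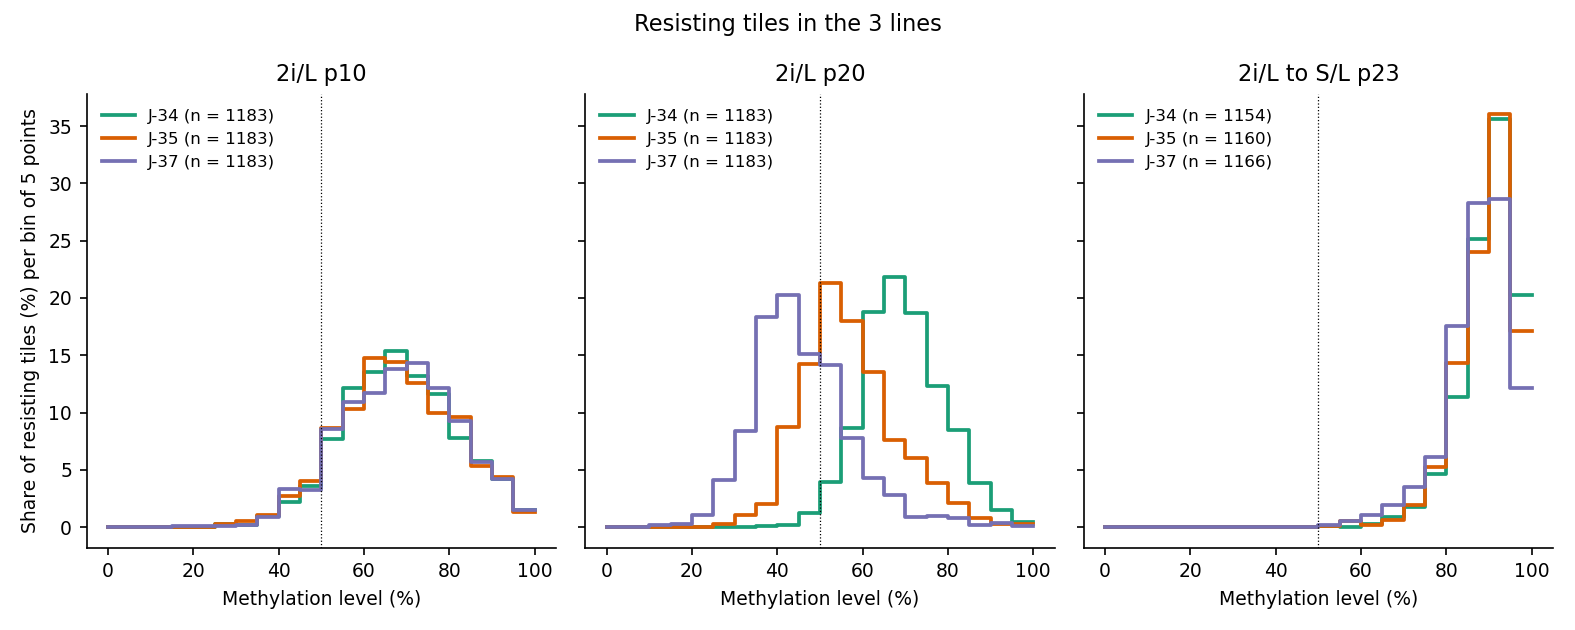
Share of resisting tiles (%) per 5-point bin of methylation level (%) in each ESC line (J-34, J-35, J-37), in 2i/L p10, 2i/L p20 and 3 passages after the return to S/L (p23); n is the number of tiles covered. The 3 curves overlie each other at p10, separate at p20 in the order J-37, J-35, J-34 from low to high, and lie close together again at p23.

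The widest gap between lines among tiles with at least 20 reads in each of the 9 libraries was at chr13:13233564-13233581 (4 CpGs). In 2i/L p20 it had 75% in J-34, 80% in J-35 and 11.8% in J-37, and at 2i/L p10 the same lines had 77.2%, 82.1% and 90.6%. J-37 thus had the highest level of the 3 lines at p10 and the lowest at p20. At p23 it had 88.2% in J-34, 80% in J-35 and 86.7% in J-37. The tile chr9:119771481-119771496 (4 CpGs) was likewise lowest in J-37 at p20, with 77.5% in J-34, 61.1% in J-35 and 15.6% in J-37, while its p10 levels lay between 79.5% and 84.6%.

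To read each line at tiles it had no part in choosing, each line was left out in turn and its 2i/L p20 level read at the tiles the other lines selected. J-34 had at least 50% at 557 of 589 tiles selected by J-35 and J-37 and covered in J-34 (94.6%), against 30.5% of the other high tiles. J-35 reached 50% at 779 of 1537 tiles (50.7%), against 4.63%. J-37 did so at only 403 of 3007 tiles (13.4%), against 0.264%. The medians were 69.7% in J-34, 50% in J-35 and 34.8% in J-37 at the selected tiles, against 42.6%, 28.6% and 18.6% at the other high tiles. Leaving out J-34 reduced the number of selected tiles to 641, and leaving out J-37 raised it to 3282, so the size of the set rests on these 2 lines.

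Resisting tiles were already well methylated at p10 in 2i/L, in libraries that took no part in choosing their level. Their median in 2i/L p10 was 67.7%, with library medians of 68.2% in J-34, 66.7% in J-35 and 69.0% in J-37. The other high tiles had 40.1%. At least 50% was found at 1123 of 1183 resisting tiles (94.9%), 8.67% of all tiles and 21.8% of other high tiles. In S/L p10 the medians were 93.0% in the 893 resisting tiles covered in its 3 libraries and 87.4% in the other high tiles. Relative to S/L p10, resisting tiles retained a median of 72.6% of their level and other high tiles 46.1%. The retained share was 81.4% at the 294 tiles that held 50% in all 3 lines at p20 and 70% at the rest.

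Many resisting tiles had nevertheless lost methylation at p10. Of 866 resisting tiles tested, 588 (67.9%) were called lower at p10 in 2i/L relative to serum, against 50.6% of all tiles and 99.1% of other high tiles, and 0 were called higher, against 0.0% of all tiles (limma, adjusted p under 0.05 and at least 20 points). Unadjusted p was under 0.05 at 812 of the 866, all in the lower direction. A quasi-binomial model called 588 lower, against 50.7% of all tiles and 99.1% of other high tiles. It called 0 higher, against 0% of all tiles. The median difference of 2i/L p10 minus S/L p10 was -25.2 points in resisting tiles and -46.8 points in other high tiles. The 3 libraries of each group did not overlap at 587 of the 588 called tiles. This was not counted over all tiles or other high tiles, and a call already needs a difference of at least 20 points. A level less than 10 points below S/L p10, or above it, was seen at 81 of 893 resisting tiles (9.07%), against 12 of 15871 other high tiles (0.0756%). Losses of 40 points or more were seen at 60 resisting tiles (6.72%), against 11691 other high tiles (73.7%). The share called depended on the definition. It was 38.8% of the tiles with at least 50% in each library of 2i/L p20 and 31.4% with a 2i/L p20 threshold of 60%. On simulated data this test recovered 52% of losses of 25 points and 100% of losses of 50 points. The simulated libraries of a group differed by counting error only, without differences between lines, so these shares may be too high.

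The largest called loss among tiles with at least 20 reads was at chr11:88795903-88795921 (3 CpGs). In 2i/L p10 it had 36.8% in J-34, 48.6% in J-35 and 17.4% in J-37, against 85.7%, 95.9% and 93.5% in S/L p10 (a difference of -57.4 points, limma adjusted p = 4.68e-07). In 2i/L p20 this tile had 69.2% in J-34, 39.4% in J-35 and 55.6% in J-37, above p10 in 2 of the 3 lines. The choice of tiles set a minimum for the mean in 2i/L p20, and this tile was named for its low p10 levels. A p20 mean above its p10 mean therefore follows from how it was picked and is no evidence of a rise. In PD the tile had only 8.51% (Wilson 95% interval 3.36 to 19.9%). At chr13:60863091-60863224 (3 CpGs) the 2i/L p10 libraries had 44.1%, 44.4% and 44.7%, against 95.6%, 100% and 90.5% in S/L p10 (limma adjusted p = 4.12e-07). At the other end, chr1:8782249-8782269 (4 CpGs) had 95.8% in J-34, 94.4% in J-35 and 93.8% in J-37 in 2i/L p10, against 95.8%, 95% and 95.8% in S/L p10. In that tile the libraries of the 2 media overlapped at p10, and its 2i/L p20 levels were 78.1% in J-34, 84.4% in J-35 and 80% in J-37.

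The tiles were next followed in the libraries in which Mek signalling alone was removed, genetically in MEK DKO or by the single compound PD. These groups have 1 library each, so their values carry no replicate error and no test was made between them. In MEK DKO the resisting tiles had a median of 48.5%, against 25.7% in the other high tiles. At least 50% was found at 519 of 1091 resisting tiles (47.6%), 1.94% of all tiles and 3.47% of other high tiles. In PD the medians were 68.2% and 41.9%, and at least 50% was found at 1070 of 1157 resisting tiles (92.5%), 10.9% of all tiles and 29% of other high tiles. With CHIR alone the medians were 93.75% and 87.8%, and at least 50% was found at 929 of the 929 resisting tiles covered there, 43.9% of all tiles and 99.9% of other high tiles. The MEK DKO share depended on the lines that chose the tiles: without J-37 it was 30%, and without J-34 it was 62.5%.

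The levels in PD were close to those in 2i/L p10. Across 1157 resisting tiles the median difference of PD minus 2i/L p10 was -0.541 points and 1.95 points in other high tiles. In PD 31 resisting tiles (2.68%) were at least 20 points lower and 20 (1.73%) at least 20 points higher, against 1.57% and 3.39% of other high tiles. The levels of the resisting tiles in PD and 2i/L p10 correlated at r = 0.67 across tiles. MEK DKO was lower. Its median difference to PD was -18.1 points across 1072 tiles, and 470 tiles (43.8%) were at least 20 points lower, against 33.6% of other high tiles, while 3 were at least 20 points higher, against 0.152%. The medians of these tiles were 48.4% in MEK DKO and 67.5% in PD, and those of other high tiles were 25.7% in MEK DKO and 41.9% in PD, a median difference of -15.5 points. A fall of 20 points is a larger part of the level in other high tiles than in resisting tiles. To 2i/L p10 the median difference was -18.4 points, with 484 of 1091 tiles (44.4%) at least 20 points lower, against -13.4 points and 25.6% in other high tiles. MEK DKO also lay below 2i/L p20, with a median difference of -7.73 points and 176 tiles (16.1%) at least 20 points lower, against 4.11% of other high tiles, whereas the median difference of PD minus 2i/L p20 was 10.8 points, with 230 tiles (19.9%) at least 20 points higher, against 21% of other high tiles, and 11 tiles at least 20 points lower, against 0.171%. The other high tiles had median differences of -4.06 points for MEK DKO and 11.7 points for PD to 2i/L p20. The level in 2i/L p20 separated the 2 sets by choice. The differences to 2i/L p20 are therefore a description, and the 2 sets cannot be compared on them. Against CHIR, MEK DKO was at least 20 points lower at 835 of 874 resisting tiles (95.5%) and at 99.9% of other high tiles. PD was at least 20 points lower than CHIR at 614 of 923 resisting tiles (66.5%), against 97.3% of other high tiles. The MEK DKO cells differ from the J-34 cells also in origin and in their feeders, and no induced pluripotent cells with Mek1 and Mek2 were measured, so genotype, origin and feeders cannot be told apart.

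**Figure D3:**
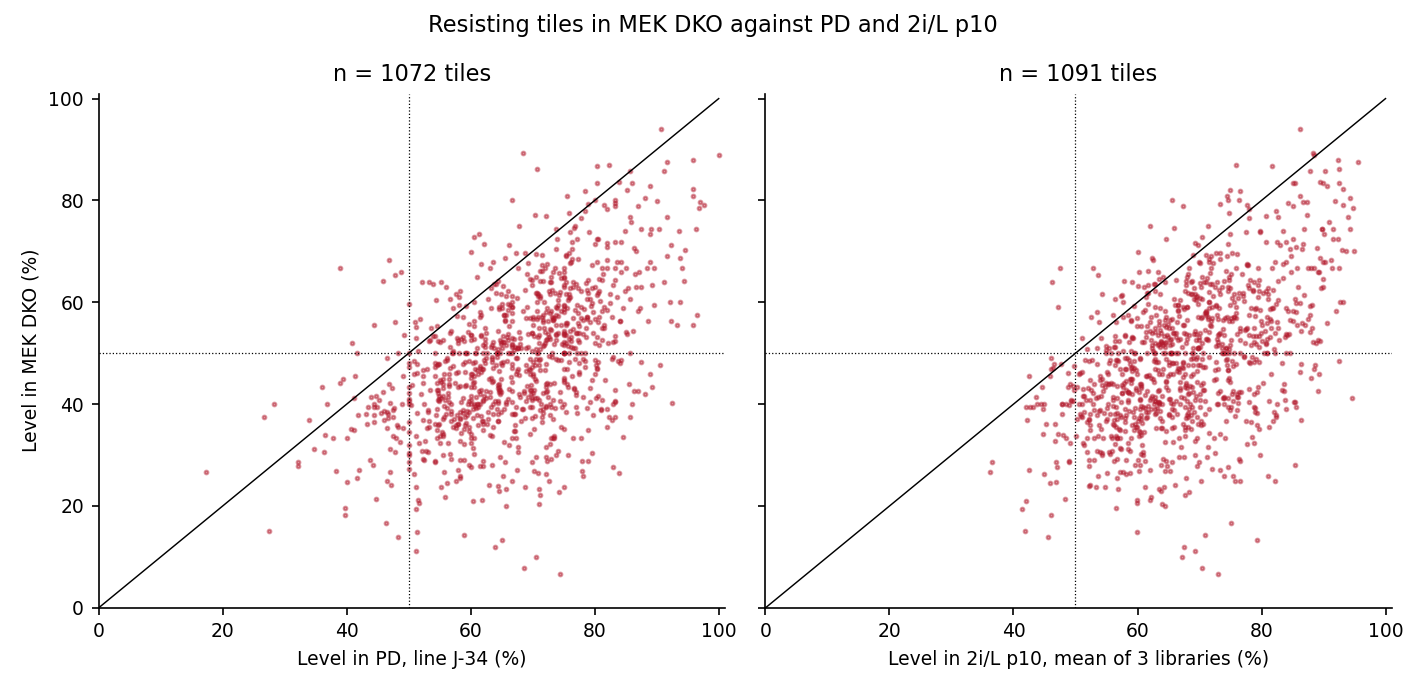
Methylation level (%) of each resisting tile in MEK DKO (vertical axis) against PD in line J-34 (left, 1072 tiles) and against the mean of the 3 libraries of 2i/L p10 (right, 1091 tiles); each point is 1 tile, the solid line is equality and dotted lines mark 50%. Most points lie below the line of equality, and a few tiles with high levels in PD and 2i/L p10 lie under 20% in MEK DKO.

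Of the 1072 resisting tiles covered in both MEK DKO and PD, 494 had at least 50% in both, 496 in PD only, 11 in MEK DKO only and 71 in neither. At least 50% in MEK DKO, in PD and in each library of 2i/L p10 was found at 461 tiles (43.0%), against 322 of 18478 other high tiles (1.74%). Of these, 174 also had at least 50% in each library of 2i/L p20. Among tiles with at least 90% in S/L p10, the resisting ones were at 93.8% there and the other high ones at 92.1% (medians). The resisting ones had a median of 50% in MEK DKO, 70.2% in PD and 68.7% in 2i/L p10, while the other high ones had 31.25% in MEK DKO, 50% in PD and 48.1% in 2i/L p10. Of these resisting tiles 50.6% had at least 50% in MEK DKO, against 7.07% of the other high ones. The tiles that held 50% in all 3 lines had higher medians than the remaining resisting tiles, 56.9% against 45.8% in MEK DKO and 75.3% against 65.7% in PD. Tiles just inside (50 to 55% in 2i/L p20) had medians of 43.5% in MEK DKO and 64.0% in PD, and tiles just outside (45 to 50%) had 40.1% in MEK DKO and 58.7% in PD. At least 50% was found at 32.6% of the tiles just inside and 19.3% of those just outside in MEK DKO, and at 88.8% and 79.5% in PD.

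Some tiles were about as high in MEK DKO as in PD. At chr14:119162718-119162735, among the tiles that resisted best in 2i/L, MEK DKO had 85.7% (Wilson 95% interval 68.5 to 94.3%) and PD had 91.2% (82.1 to 95.9%). At chr13:62582697-62582868 (5 CpGs) MEK DKO had 83.6% (75.6 to 89.4%) and PD had 84.0%, and the 2i/L p20 libraries had 81.9% in J-34, 77.6% in J-35 and 75.6% in J-37. The highest level in MEK DKO among the tiles with at least 20 reads was 94.1% (80.9 to 98.4%), at chr4:105352630-105352757 (3 CpGs), against 90.7% in PD. These 3 tiles held at least 72% in MEK DKO, in PD and in each library of 2i/L. They were among those named for the highest MEK DKO levels, so a high level there follows from how they were picked.

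The opposite pattern was seen at chr4:155510128-155510994, a tile of 8 CpGs. It had 6.56% in MEK DKO (Wilson 95% interval 3.36 to 12.4%, 122 reads) but 74.4% in PD (68 to 79.9%, 203 reads). In 2i/L p10 it had 69.6% in J-34, 81.5% in J-35 and 68% in J-37, and it was at 96.1% in CHIR. Its levels in keratinocytes were 89.1% and 98.7% in the 2i/L libraries and 62.5% in the wild-type library. At chr1:48798412-48798450 (7 CpGs) MEK DKO had 7.84% (3.09 to 18.5%) and PD had 68.7% (58.1 to 77.6%). At chr11:29940300-29940311 (3 CpGs) MEK DKO had 11.9% (6.18 to 21.8%) and PD had 63.9%. In these 3 tiles the counting intervals of MEK DKO and PD lay far apart. The tiles were among those named for the lowest MEK DKO levels of the resisting tiles. A wide gap to PD therefore follows in part from how they were picked, and the intervals do not allow for that. Of the 1091 resisting tiles covered, 14 were under 20% in MEK DKO, against 30.1% of other high tiles and 73.1% of all tiles. Of the 1157 covered in PD 2 were under 20% there, against 4.39% of other high tiles and 59.5% of all tiles.

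**Figure D4:**
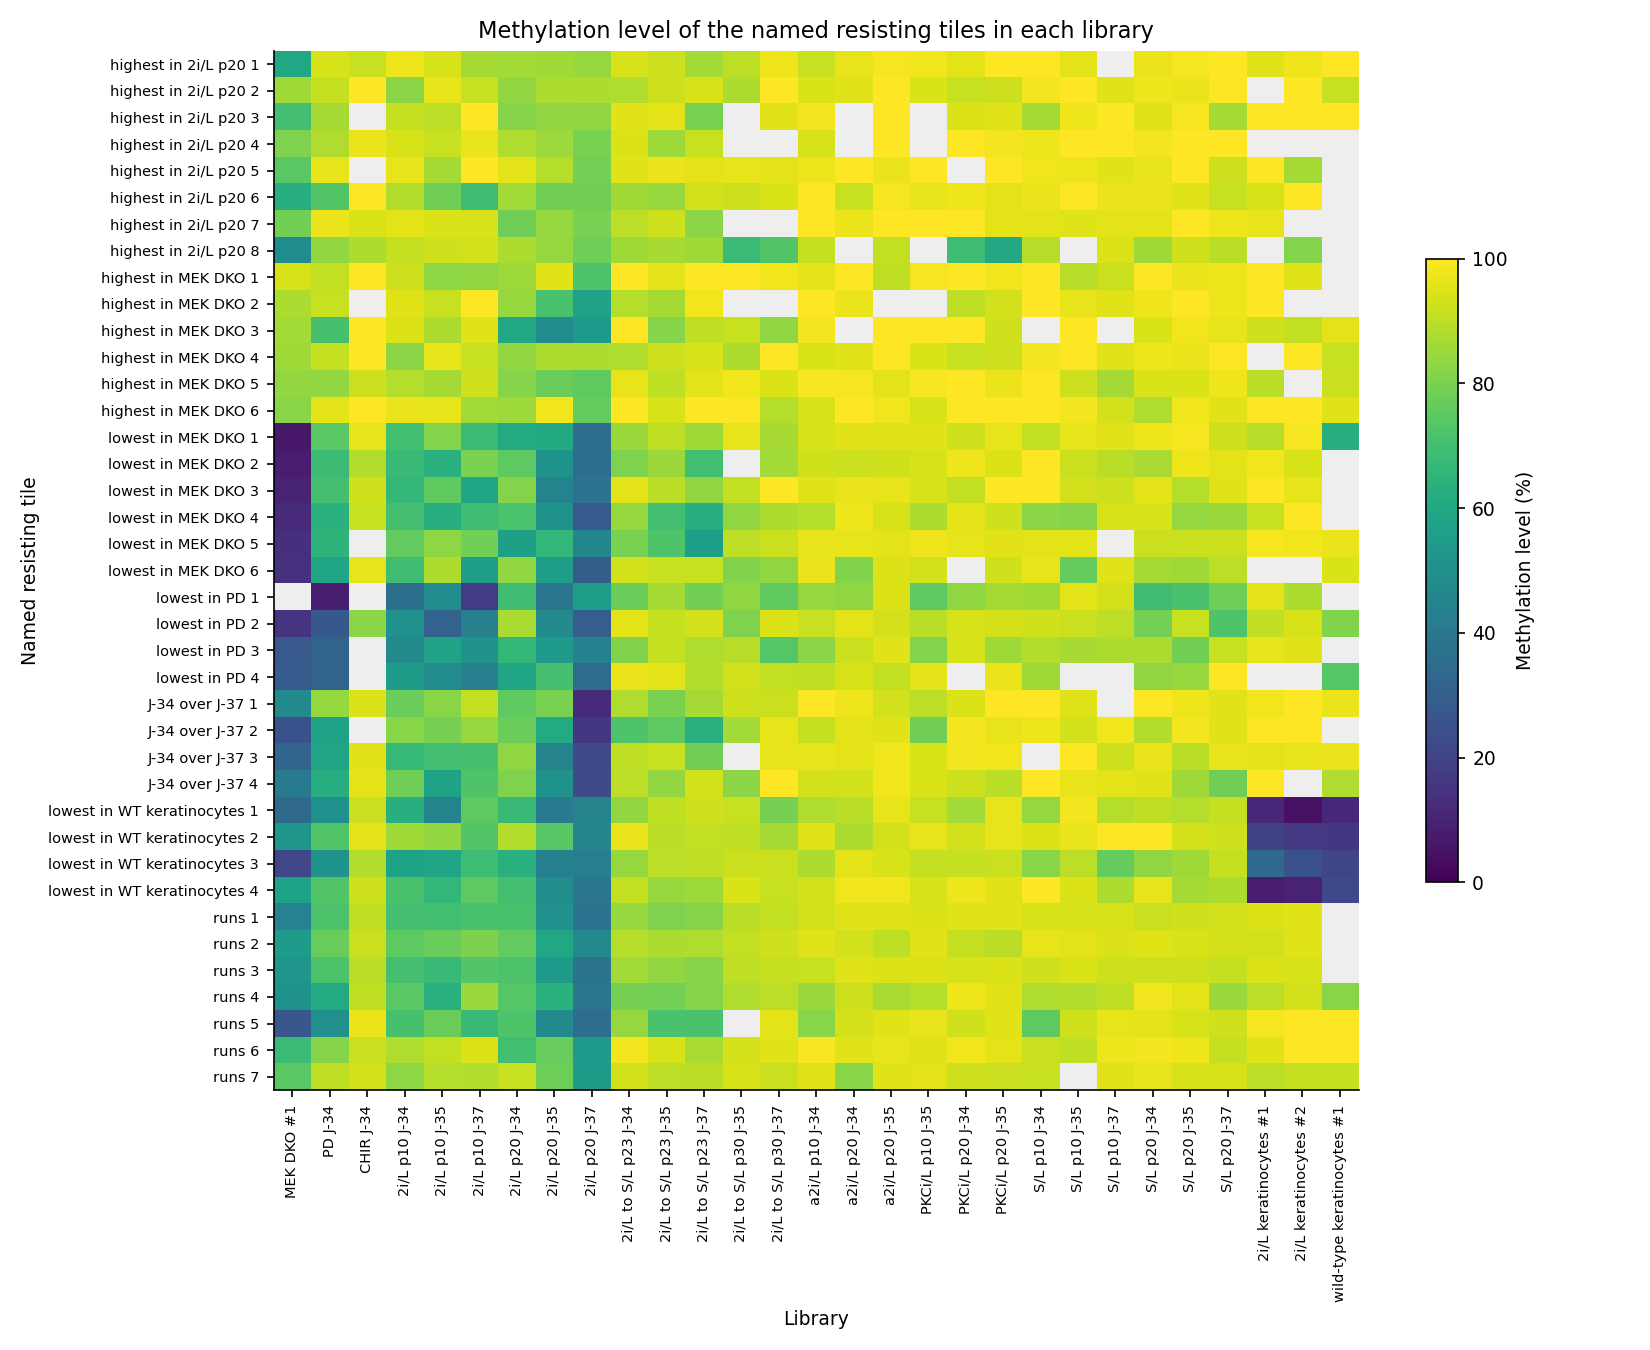
Methylation level (%, colour) of the named resisting tiles (rows, grouped by why they were named) in each library (columns); grey cells had too few reads. Rows named for low MEK DKO levels are dark in the MEK DKO column and mostly green to yellow elsewhere, and the rows lowest in wild-type (WT) keratinocytes are dark in all keratinocyte columns covered.

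Methylation of the resisting tiles was high again 3 passages after cells left 2i/L. At p23 the median was 89.6% in resisting tiles and 82.1% in other high tiles, with library medians of 90.7% in J-34, 90.3% in J-35 and 88.3% in J-37 in resisting tiles. At p30 the medians were 92.3% and 86.0%. On the mean of all libraries of a group, no resisting tile covered in each of them was under 50% at p23, at p30 or in S/L p10. Of all tiles, 47.3% had at least 50% at p23, 46.0% at p30 and 45.6% in S/L p10. The shares of other high tiles were 99.4%, 99.9% and 100%, so they hardly differed from resisting tiles here. In the single p30 library of J-37, 1008 of 1009 resisting tiles covered had at least 50%, against 99.8% of other high tiles, and the lowest had 33.3%. Of 866 resisting tiles tested, 12 (1.39%) were lower at p23 than in S/L p10, against 0.599% of all tiles and 1.59% of other high tiles (limma). None were higher by the same test, against 0.0388% of all tiles and 0.00642% of other high tiles. Unadjusted p was under 0.05 at 191 tiles. A quasi-binomial model called 13 (1.501%) lower, against 1.43% of all tiles and 2.88% of other high tiles. It called 0 higher, against 0.181% of all tiles and 0.00642% of other high tiles. The share of resisting tiles called lower thus exceeded that of all tiles by limma but was close to it by the quasi-binomial model. By both it was below that of other high tiles. The median difference was -3.24 points in resisting tiles and -5.07 points in other high tiles. With J-34, J-35 or J-37 left out, which also changed the chosen tiles and left 2 libraries a group, 0 to 0.418% of resisting tiles were called, and calls over all tiles numbered 4 to 106, against 324 with 3 lines. With a pseudocount of 0.5 and all 3 lines 0.577% were lower, against 0.115% of all tiles and 0.302% of other high tiles. Against S/L p20, within 1 coverage set, the median difference of p23 was -1.14 points and 11 of 1119 tiles were at least 20 points lower, a description because S/L p20 chose the tiles.

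The largest shortfall at p23 was seen at chr8:51849248-51849261 (4 CpGs). At p23 it had 68.3% in J-34, 65.6% in J-35 and 58.3% in J-37, against 97.2%, 100% and 100% in S/L p10 (a difference of -35 points, limma adjusted p = 0.00435). Its 2i/L p10 levels, from 79.2% to 92.9%, were above those at p23, and 2i/L p20 had 73.1% in J-34, 52.8% in J-35 and 33.8% in J-37. At chr6:68610987-68610996 (3 CpGs) p23 had 66.7%, 61.5% and 61.7%, against 94.4%, 95% and 95.6% in S/L p10 (limma adjusted p = 0.0107). That tile reached 97.6% and 91.7% in the libraries of p30, which was called higher than p23 (limma adjusted p = 0.0335). At chr13:12982208-12982227 (3 CpGs) p23 had 68%, 59.3% and 56.9%, against 95.5%, 86.7% and 89.4% in S/L p10 (limma adjusted p = 0.0105), and the p30 libraries had 76.5% (titled J-35) and 58.9% (J-37). The p23 libraries of these 3 tiles lay wholly below those of S/L p10, which was a condition for naming a called tile.

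Between the times after the return, 4 of 629 resisting tiles (0.636%) were higher at p30 than at p23, against 0.26% of all tiles and 0.427% of other high tiles, and 0 were lower, against 0.0277% of all tiles and 0.0586% of other high tiles (limma). Unadjusted p was under 0.05 at 106 tiles. A quasi-binomial model called 6 (0.954%) higher, against 1.31% of all tiles and 1.16% of other high tiles. It called 0 lower, against 0.136% and 0.117%. The share of resisting tiles called higher thus exceeded that of all tiles by limma but not by the quasi-binomial model. The median difference of p30 minus p23 was 2.73 points in resisting tiles and 3.78 points in other high tiles. Without the p30 library titled J-35, which leaves 1 p30 library, the median difference was 2.72 points in resisting tiles and 3.89 points in other high tiles. With cell line as a block 3 resisting tiles (0.477%) were called higher, against 0.247% of all tiles and 0.452% of other high tiles. On simulated data this comparison recovered 18% of losses of 25 points and 95% of losses of 50 points. Gains and differences between lines were not simulated. The tile chr7:69791326-69791336 (3 CpGs) was among the 4, with 95.7% and 100% at p30 against 73.1% in J-34, 75% in J-35 and 69.1% in J-37 at p23 (limma adjusted p = 0.0319).

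The other inhibitor media left the resisting tiles high. At p10 the medians were 92.3% in a2i/L and 95% in PKCi/L in resisting tiles, against 81.0% in a2i/L and 88.9% in PKCi/L in other high tiles. At p20 they were 95.5% in a2i/L and 95.2% in PKCi/L, with 90.2% in other high tiles in both media. At least 50% was found at each resisting tile covered in these libraries. In a2i/L p10 this held for 41.5% of all tiles and 98.3% of other high tiles, in PKCi/L p10 for 44.9% and 99.8%, in a2i/L p20 for 47.9% and 99.9%, and in PKCi/L p20 for 46.6% and 100%. PKCi/L p20 and a2i/L p20 were compared at 629 resisting tiles, and 0 were called lower and 0 higher, against 0.0597% and 0.0768% of all tiles (limma). Of 11937 other high tiles 0 were called in either direction as well. Unadjusted p was under 0.05 at 58. A quasi-binomial model gave 0 in either direction, against 0.629% of all tiles lower and 0.572% higher. Of other high tiles it called 0.0168% lower and 0.0670% higher. The median difference was -0.530 points. This test of 2 against 2 libraries recovered 32% of losses of 25 points and 99% of losses of 50 points on simulated data, again without differences between lines. The lowest mean among resisting tiles covered in both PKCi/L p20 libraries was at chr1:124253662-124253806 (3 CpGs), at 68.8% in J-34 and 60.5% in J-35 in PKCi/L p20, against 90.9% in J-35 in a2i/L p20, where J-34 was not covered. The same tile had 92.4% ± 1.04 in 2i/L p10 (SD, n = 3 lines) but 48.5% in MEK DKO (Wilson 95% interval 32.5 to 64.8%), and it carried 148 reads per CpG and library.

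Keratinocytes, a differentiated cell type, also had high levels at most of these tiles. The median was 94.9% in 2i/L keratinocytes (673 resisting tiles covered in both libraries) and 94.7% in wild-type keratinocytes (655 covered), against 88.6% and 88.1% in other high tiles. In 2i/L keratinocytes 656 of the 673 (97.5%) had at least 50%, 43.8% of all tiles and 90.7% of other high tiles. At least 50% was found at 641 of the 655 (97.9%) in wild-type keratinocytes, 44.1% of all tiles and 90.7% of other high tiles, and 14 were under 50%. The tile chr15:82785586-82785711 (4 CpGs) had 11.5% and 4.55% in 2i/L keratinocytes and 11.1% in wild-type keratinocytes (Wilson 95% interval 4.41 to 25.3%), but 63.0% in J-34, 45.3% in J-35 and 75% in J-37 in 2i/L p10. The tile chr4:33639890-33639968 (4 CpGs) had 7.94% and 9.52% in 2i/L keratinocytes and 21.9% in wild-type keratinocytes (11 to 38.8%), with 57.8% in MEK DKO and 72.8% in PD. The tile chr6:11493497-11493567 (3 CpGs) had 19.4% and 16.7% in 2i/L keratinocytes and 16.0% in wild-type keratinocytes. The tile chr6:37471078-37471126 (3 CpGs) had 34.1% and 25% in 2i/L keratinocytes and 20.8% in wild-type keratinocytes. All were named for the lowest levels in wild-type keratinocytes, and the other 3 tiles were under 22% in all 3 keratinocyte libraries. In 2i/L p20 J-34, J-35 and J-37 had 67.4%, 41.5% and 44.9% at chr15:82785586-82785711. They had 70.4%, 49.1% and 39.2% at chr4:33639890-33639968, and 88.5%, 74% and 45.9% at chr6:11493497-11493567.

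Resisting tiles also differed from other high tiles in where they lay. The distance to the nearest CpG-dense unmethylated tile, defined as 10 or more CpGs and under 10% in S/L p20, had a median of 84087 bp for resisting tiles and 50775 bp for other high tiles. The share of high tiles that resisted was 3.14% (84 of 2676) under 10 kb from such a tile. It was 4.90% (561 of 11447) at 10 to 100 kb, 7.37% (425 of 5763) at 100 to 500 kb and 14.3% (113 of 792) at 500 kb or more. In the libraries the choice did not use, the high tiles at 500 kb or more had medians of 48.2% in 2i/L p10 and 48.4% in PD, against 40.1% and 39.5% under 10 kb. MEK DKO showed no such order, with 23.8% at 500 kb or more and 26.3% under 10 kb. S/L p10 levels of the same tiles moved with distance as well, 89.8% at 500 kb or more against 86.2% under 10 kb.

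**Figure D5:**
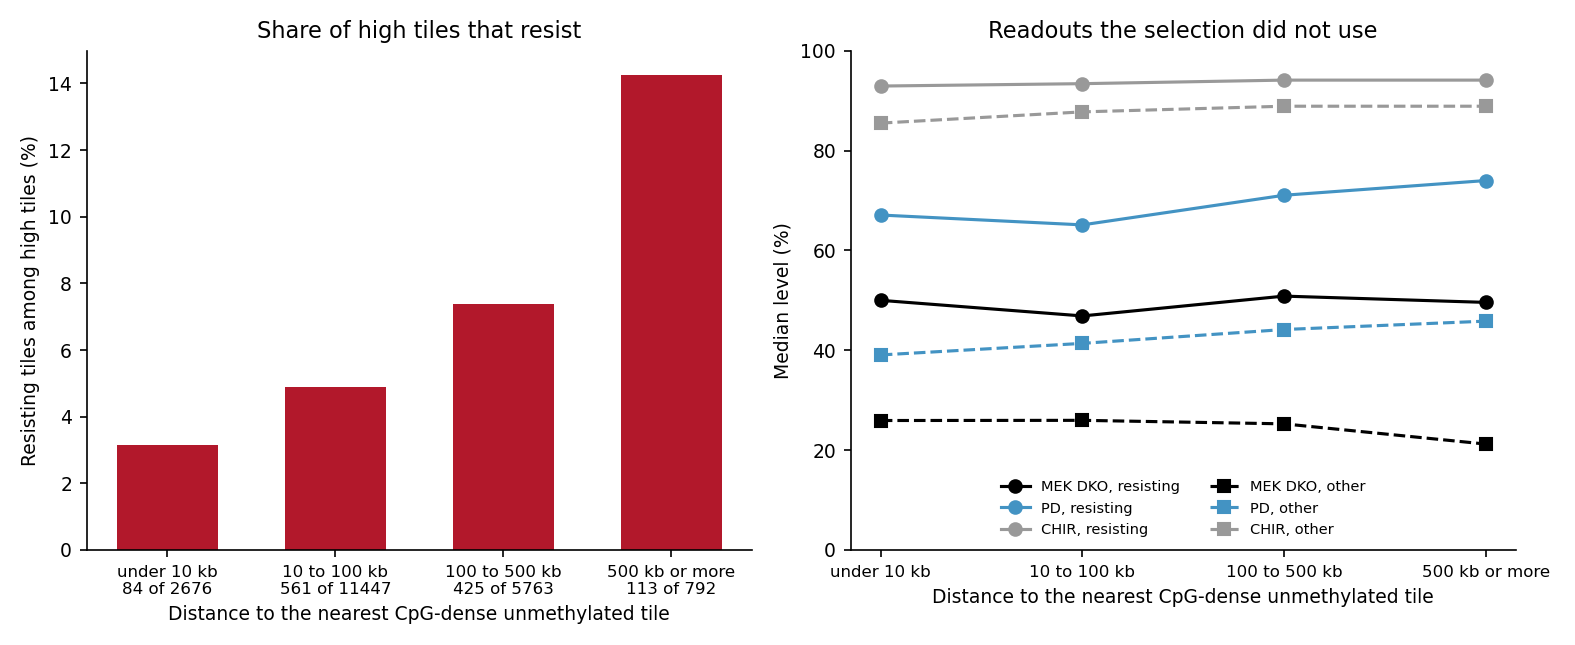
Left, share (%) of high tiles that resisted by distance to the nearest CpG-dense unmethylated tile, with counts under the bars. Right, median methylation level (%) in MEK DKO, PD and CHIR by the same distance for resisting tiles (circles, solid) and other high tiles (squares, dashed): the share that resists rises from 3.14% to 14.3% with distance, PD levels rise slightly and MEK DKO levels do not.

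Fewer measured tiles lay around resisting tiles. A median of 3 other tiles lay within 50 kb, against 5 for other high tiles, and the share that resisted was 10.7% (233 of 2184) with no other tile within 50 kb and 3.64% (179 of 4911) with 10 or more. Another resisting tile lay within 50 kb of 15.4% of them, against 9.45% of other high tiles. Their neighbours had levels close to those elsewhere. Other high tiles within 50 kb of a resisting tile had a median of 41.3% in 2i/L p10 and 27.6% in MEK DKO, against 39.7% and 26.7% near other high tiles. The stretch from first to last CpG had a median of 83 bp in resisting tiles and 120 bp in other high tiles. Number of CpGs differed little, with a median of 3 CpGs in both sets and shares that resisted of 6.09% with 3 CpGs, 5.69% with 4, 4.92% with 5 to 9 and 3.72% (7 of 188) with 10 or more. Within tiles the CpGs of both sets spread about equally. The lowest CpG of a resisting tile had a median of 53.5% in 2i/L p10, against 25.4% in other high tiles, and the range between lowest and highest CpG was 24.7 points, against 26.4 points. By chromosome the share ran from 3.00% on chromosome 11 (45 of 1498) to 9.53% on chromosome 3 (79 of 829).

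Neighbouring bins resisted together in 13 places that held 27 tiles. The longest was chr8:125951127-125953981, 3 bins with 43 CpGs and at least 580 reads per bin in each of the 9 libraries. Its first bin (19 CpGs) had 70.5% in J-34, 69.8% in J-35 and 71.3% in J-37 in 2i/L p10, against 94.0%, 94.0% and 94.1% in S/L p10 (limma adjusted p = 1.32e-05). In 2i/L p20 the lines had 71.3%, 50.6% and 38.1%. The bin carried 258 reads per CpG and library. MEK DKO had 44.2% (Wilson 95% interval 41.7 to 46.8%) and PD had 72.2% (71.2 to 73.3%). The 3 lines lay close together at p10 and apart at p20, and the intervals of MEK DKO and PD did not overlap. The run with the next highest number of reads, chr12:20239164-20240188 (21 CpGs), had 68%, 64.2% and 69.7% in 2i/L p10 in its first bin and 45.4% in MEK DKO. All 5 bins of these 2 runs are among the 8 deepest resisting tiles described next.

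Some resisting tiles carried far more reads than the rest. Of 21 high tiles with at least 50 reads per CpG and library, 8 (38.1%) resisted, against 5.69% of the others. The deepest, chr2:98506419-98506671 (4 CpGs), carried 41645 reads per CpG and library, against a median of 13.1 for resisting tiles. It had 67.5% in J-34, 68.4% in J-35 and 67.6% in J-37 in 2i/L p10, against 85.9%, 87.1% and 85.7% in S/L p10 (limma adjusted p = 0.00245, a difference of -18.3 points and so not called). In 2i/L p20 it had 62.3% in J-34, 51.8% in J-35 and 40.7% in J-37, and MEK DKO had 44.2% and PD 57.4%. At p30 it had 88.6% and 86.0%, against 74.8%, 72.4% and 66.0% at p23. Whether reads of repeated sequence were placed at these 8 tiles was not tested.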

How the data were processed

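CpG methylation was measured by RRBS in 29 libraries of 15 groups. Per the submitters' processing notes, reads were processed with BSMAP 2.89 on mouse build mm9. No label read here names the filters or the conversion rate. The authors deposited 1 list of CpGs per library with a text field of methylated over all reads and a score, which when checked equalled 1000 times that share, rounded down. The text field was read here; no normalization is given. The members and lists were chosen with earlier results of these data known.

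Reads were summed per 1000 bp bin over CpGs with at least 5 reads in the 9 libraries that define the tiles. Elsewhere a tile counts where at least 3 of those CpGs have 5 reads. Replicated groups were compared with limma 3.58.1 (R 4.3.3) on log2((methylated + 1)/(unmethylated + 1)), with a pseudocount of 1, two-sided, Benjamini-Hochberg adjusted over all tiles. The fit held 15 libraries and 54093 tiles for 2i/L p10 and for p23 against S/L p10, and 21 libraries and 46893 tiles for p30 against p23 and for PKCi/L against a2i/L. A call needed an adjusted p under 0.05 and 20 points. The read counts are recorded as a text field, so count tools were not used; a quasi-binomial model was the second tool. The test was checked on simulated data, in which all libraries of a group shared 1 level per tile and differed by counting error only. Cell lines pair the libraries: deviations from group means correlated at -0.033 to 0.0653 in 30 pairs of the same line and at -0.0684 to 0.0605 in 60 pairs of different lines. Alternatives changed thresholds, read and CpG minimums, the bin grid, pseudocount and lines. Named tiles had at least 20 reads in each of the 9 libraries and were taken by rank: highest minimum in 2i/L p20, highest and lowest MEK DKO, lowest PD, nearest the thresholds, largest J-34 minus J-37, largest called differences, lowest wild-type keratinocytes, longest runs and most CpGs. Called tiles were named only where the libraries of the 2 groups did not overlap. The deepest tiles and the clustering of coverage (Python 3.11.15, scipy 1.17.1) were added after their values were seen.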

Additional observations from a re-analysis of the deposited data

How the results depend on the processing

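The number of resisting tiles and their shares moved with the definition. A 2i/L p20 threshold of 40% gave 4316 tiles, of 60% gave 307, and 50% in each library gave 294. A minimum of 10 reads per CpG left 159 tiles, of 3 reads gave 2069, and of 5 CpGs per tile gave 225. Leaving out a line gave 641 to 3282. The share at 50% or more in MEK DKO was 22.6% with the 40% threshold, 77.3% with 60%, 72.3% with each library, 40% with 10 reads, 50.7% with 3 reads and 43.9% with 5 CpGs, and 29.997 to 62.5% without a line. In PD it was 75.7%, 97.3%, 96.5%, 90.4% (10 reads) and 94.9% (5 CpGs), and 82.9 to 94.8% without a line. In 2i/L p10 it was 74.8%, 99.7%, 98.0%, 96.2%, 93.7% (3 reads) and 96.4%, and 80.5 to 95.3% without a line.

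The share called lower in 2i/L p10 against S/L p10 was 31.4% with the 60% threshold, 38.8% with each library and 52.3 to 81.6% without a line. For p23 against S/L p10 the lower share was 3.70% with adjusted p alone, against 0.771% of all tiles and 1.89% of other high tiles. With a pseudocount of 0.5 it was 0.577%, against 0.115% and 0.302%. In both settings resisting tiles lay above other high tiles, unlike in the main setting. The lower share was 0 with 10 reads or 5 CpGs, against 0.778% and 0.333% of other high tiles, and 0 to 0.418% without a line. The higher share was 0.115% with adjusted p alone, 0.0304% with the 40% threshold and 0.0931% with a minimum of 15 reads per tile. For p30 against p23 the higher share was 0.290% with the 40% threshold, 1.32% with each library, 0.314% with the shifted grid, 0.418% with 15 reads per tile, and 0 with a pseudocount of 0.5, with 10 reads, with 5 CpGs, without any line or without the p30 library titled J-35. With cell line as a replicate block the calls were 588, 12, 3 and 0 resisting tiles in the 4 tests, in the order reported. The count changed only for p30 against p23. For 2i/L p10 this was 67.9%, against 50.7% of all tiles and 99.1% of other high tiles. Lower at p23 were 1.39%, against 0.638% and 1.74%. Higher at p30 were 0.477%, against 0.247% and 0.452%. For PKCi/L p20 0.0597% of all tiles were lower and 0.0618% higher, and 0% of other high tiles. PKCi/L p20 against a2i/L p20 gave 0 calls in 18 of 18 settings, and 16 of 18 settings kept the share lower in 2i/L p10 within 1.5 times. The cause of these shifts was not tested. A minimum of 10 reads per CpG kept 24811 of the 62466 tiles.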
